A study of Mus musculus with 19 samples.

Results

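The genes described here code for proteins that coat lipid droplets or control the breakdown of the fat inside them. They were the 10 genes of the deposited table with the symbols Cidea, Cideb, Cidec, Plin2, Plin3, Plin4, Plin5, G0s2, Pnpla2 and Pnpla3, and all 10 were found among its 24537 genes. Transcripts were measured by RNA sequencing of poly(A) RNA from hepatocytes, the parenchymal cells that carry most of the liver's metabolism, isolated by perfusion in 2 steps. The libraries came from 19 wild-type male C57BL/6J mice. The labels put 10 young mice at 5 months (5mo) and 9 old mice at 24 months (24mo), and give no treatment. The animals were culled on 2 days that lay 23 days apart, with 5 young and 5 old mice on the first and 5 young and 4 old mice on the second. Mice are named below by their library numbers. That each library is a separate animal rests on these numbers, and if it were not so the p-values would measure only the spread between libraries.

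Hepatocytes store triglyceride in lipid droplets, which are cores of neutral fat bounded by a phospholipid monolayer and a coat of proteins. Perilipins (Plin genes) sit on the surface and limit access of lipases. CIDE proteins gather where droplets touch and move fat from smaller to larger ones, and the adipocyte members of this family are known to appear in fatty liver. Adipose triglyceride lipase, encoded by Pnpla2, takes the first step of fat breakdown and is inhibited by the product of G0s2.

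Counts over genes ranged from 17381439 to 20287628 per library. Levels are given as CPM (counts scaled to a common library size by the trimmed mean of M-values method). The hepatocyte markers Alb, Apoa1, Ttr, Serpina1c, Hnf4a, Cps1, Asgr1 and Fah all passed the filter on low counts. Markers of other liver cells were also present and moved with age: 9 of 10 stellate cell, 10 of 10 macrophage and 6 of 8 endothelial genes rose in old mice and 0 fell (edgeR, adjusted over all genes). Summed over the list, macrophage markers ranged from 82.3 to 398 CPM in young and from 52.2 to 2323 CPM in old mice. Stellate markers ranged from 43.0 to 120 CPM in young and from 130 to 468 CPM in old mice, and endothelial markers from 117 to 206 CPM and from 126 to 381 CPM. In such bulk libraries fewer cells of a type and less RNA per cell cannot be told apart. From the first cull day, young mice 1184, 1186 and 1188 and old mouse 1187 stood apart from the rest in earlier results of these data (over all genes, not these 10), and values without them are given where they alter a call.

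In old hepatocytes Cidea rose 26.3-fold, Pnpla3 5.2-fold and Cidec 3.65-fold. The other 7 genes did not pass the test, and 0 of 10 fell. The test was edgeR's quasi-likelihood test with cull day as a covariate, with a threshold of 0.05 on the p-value adjusted over the 12269 genes tested. Of all genes tested 30.9% were called, 16.3% higher and 14.5% lower. The median log2 fold change was 0.26 over the 10 genes and -0.0034 over all genes. Per transcript length, the 3 genes that rose were among the 4 lowest of the 10 in young mice, and the highest, Plin2 and Cideb, did not pass.

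**Figure D1:**
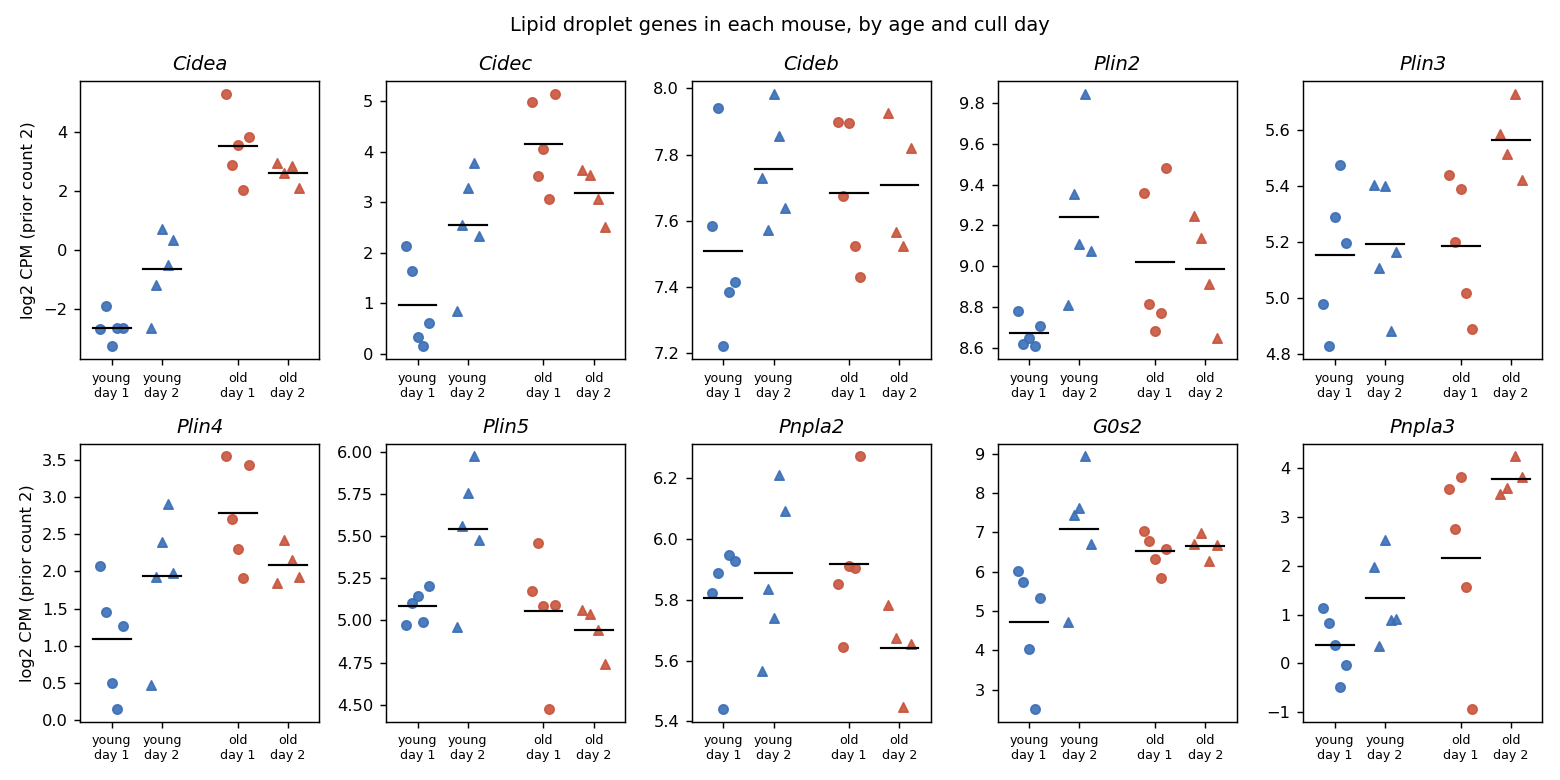
Each panel plots the log2 CPM (prior count 2) of 1 gene, with 1 point per mouse, circles for the first and triangles for the second cull day, and black lines at the mean of each age and day. All 9 old mice lie above all 10 young mice for Cidea, while the ages overlap in the other 9 panels.

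Cidea encodes a CIDE protein best known from brown fat, where it enlarges droplets. The gene lies on chromosome 18 (67343564 to 67367794, plus strand, mm10) and is annotated as protein-coding. It had 0 to 1.54 CPM in young mice with a median of 0.113, and 4.02 to 38.8 CPM in old mice with a median of 7.17. The groups did not overlap, which was so in this direction for 0.994% of all genes tested. The log2 fold change was 4.72 (SE 0.659, edgeR adjusted p = 0.000106). On the first cull day the 5 young libraries held 0 to 3 counts and the 5 old libraries 91.5 to 758. With the young mice set at a floor of 3 counts per library, the old mean of that day, 15.1 CPM, was at least 92.0-fold higher. Without old mouse 1181 that mean was 9.20 CPM, at least 56.0-fold higher than the same floor. On the second day young libraries held 1 to 28 counts and old libraries 80 to 148, an 8.33-fold difference in mean CPM. Old mouse 1181 had the highest value, 38.8 CPM, and the next old mouse had 13.9 CPM. Cidea kept its call in all 19 fits that each left out 1 mouse, with log2 fold changes of 4.40 to 5.16. The size moved more under other settings: the log2 fold change was 3.94 without young mice 1184, 1186 and 1188 (edgeR adjusted p = 0.00132) and 5.48 with DESeq2 (adjusted p = 5.77e-12). Fitted on each day alone it was 7.71 on the first (SE 0.837, edgeR adjusted p = 0.0053), a size that depends on the prior count as all 5 young libraries were at or under the floor, and 3.03 on the second (SE 0.435, edgeR adjusted p = 0.00119). An unnamed gene on the other strand, B430212C06Rik, shares 540 bases of genome with Cidea. It rose too, from 0.0877 to 1.33 CPM on average (log2 fold change 3.76, edgeR adjusted p = 2.51e-05). As the strand setting of the counting is not given in the sources used here, reads of the overlap cannot be told apart.

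Cidea and Cidec are adipocyte genes as well, so adipocyte markers were read in the same libraries. Adipoq, the adiponectin gene, had 0 to 2 counts in young and in old libraries, and Lep 0 to 1 in young and 0 in old. Ucp1, the brown fat uncoupling protein, had 0 counts in young and 0 to 1 in old libraries. Plin1, the adipocyte perilipin, had 0 to 2 counts in young and 0 to 5 in old libraries. Of the 9 adipocyte markers 4 never exceeded 3 counts, only Cfd, Fabp4 and Lipe passed the filter, and none of these was called (Fabp4, with the smallest p, gave 0.97 on the log2 scale, SE 0.419, edgeR adjusted p = 0.0839). Summed over the list they ranged from 10.9 to 23.4 CPM in young and from 10.7 to 24.8 CPM in old mice.

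Cidec, also called Fsp27 (chromosome 6, 113424636 to 113435755, minus strand), drives the fusion of droplets into large ones. It had 1.00 to 13.5 CPM in young mice with a median of 3.65, and 5.59 to 35.4 CPM in old mice with a median of 11.5. Only 3 of 9 old mice lay above all young mice, and 7 of 10 young mice lay below all old mice. The log2 fold change was 1.87 (SE 0.517, edgeR adjusted p = 0.0118). On the first cull day the young mice had 1.00, 1.15, 1.43, 3.03 and 4.27 CPM and the old mice 8.21, 11.3, 16.5, 31.5 and 35.4 CPM. Every old mouse lay above every young mouse, as for 3.89% of all genes on that day, and the log2 fold change was 3.24 (SE 0.526, edgeR adjusted p = 0.0191). On the second day the young mice had 1.69, 4.95, 5.76, 9.64 and 13.5 CPM and the old mice 5.59, 8.27, 11.5 and 12.4 CPM. The groups overlapped and the log2 fold change was 0.41 (SE 0.419, edgeR adjusted p = 0.534). The 3 lowest young values were those of mice 1184, 1186 and 1188, and without these mice the log2 fold change was 1.12 and did not pass (SE 0.492, edgeR adjusted p = 0.1). Without them 27.2% of all genes were called.

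Cideb (chromosome 14, 55754055 to 55758424, minus strand) is the CIDE gene of healthy hepatocytes, where its protein takes part in loading lipid onto very low density lipoprotein (VLDL). Young mice had 149 to 253 CPM with a median of 196, and old mice 172 to 243 CPM with a median of 204. The ages overlapped, and the log2 fold change was 0.066 (SE 0.0993, 95% interval -0.14 to 0.27, edgeR adjusted p = 0.64). Mice 1184, 1186 and 1188 were the 3 lowest of the young at 149, 167 and 170 CPM. Nop9, a gene of the other strand that shares 1580 bases with Cideb, averaged 177 CPM in young and 184 CPM in old mice, and reads of the overlap cannot be told apart. Per transcript length, Cideb made up 98.4% ± 1.26 of the 3 CIDE transcripts in the young (SD, n = 10) against 90.9% ± 5.95 in the old (SD, n = 9). Cidea went from 0.18% ± 0.232 (SD, n = 10) to 4.55% ± 3.51 (SD, n = 9) of them and Cidec from 1.45% ± 1.12 (SD, n = 10) to 4.6% ± 3.03 (SD, n = 9). Cideb thus remained the main CIDE transcript at both ages, at 79.7% or more in every mouse.

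Among the perilipins, Plin2 (chromosome 4, 86656565 to 86670059, minus strand) encodes the main droplet coat protein of hepatocytes. Young mice had 390 to 919 CPM with a median of 445, and old mice 401 to 715 CPM with a median of 482. The ages overlapped almost entirely, and the log2 fold change was 0.076 (SE 0.153, 95% interval -0.24 to 0.39, edgeR adjusted p = 0.733). Mouse 1243 of the second cull day had the highest young value, 919 CPM, and the next young mouse had 655 CPM. The young mice of the first day lay close together at 390, 393, 402, 418 and 440 CPM, below all 5 young mice of the second day (450 to 919 CPM). Plin2 supplied 87.2% ± 1.96 of the summed Plin2 to Plin5 level per transcript length in the young (SD, n = 10) against 87.9% ± 2.31 in the old (SD, n = 9).

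Plin4 (chromosome 17, 56100591 to 56109802, minus strand), next to Plin5, encodes a perilipin best known from adipocytes, where it coats new droplets. Young mice had 1.00 to 7.42 CPM with a median of 3.16, and old mice 3.50 to 11.6 CPM with a median of 4.83. Of 10 young mice 5 lay below all old mice, and 2 of 9 old mice, 1181 and 1189, lay above all young mice. At 0.89 the log2 fold change missed the threshold (SE 0.365, edgeR adjusted p = 0.0701). It was 1.71 on the first cull day (edgeR adjusted p = 0.0528) and -0.022 on the second (edgeR adjusted p = 0.972). It passed without young mouse 1243 (1.06, edgeR adjusted p = 0.027), with DESeq2 (0.89, adjusted p = 0.0345) and with limma-voom and sample weights (0.81, adjusted p = 0.048). Without young mice 1184, 1186 and 1188 it was 0.40 and did not pass (SE 0.353, edgeR adjusted p = 0.42).

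Plin5 (chromosome 17, 56111601 to 56117548, minus strand) encodes the perilipin of oxidative tissues, which holds droplets next to mitochondria. Young mice had 31.0 to 62.7 CPM with a median of 36.0, and old mice 22.1 to 43.8 CPM with a median of 33.2. At -0.29 the log2 fold change missed the threshold (SE 0.139, edgeR adjusted p = 0.112), and with limma-voom and sample weights it passed (-0.33, adjusted p = 0.0383). On the second cull day alone it was -0.63 and passed (SE 0.162, edgeR adjusted p = 0.0179), with young mice at 31.0, 44.4, 47.0, 53.9 and 62.7 CPM and old mice at 26.7, 30.6, 32.8 and 33.2 CPM. On the first day it was 0.0052 (edgeR adjusted p = 0.987). With a score of stellate, macrophage and endothelial markers as a covariate it was 0.036.

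Plin3 (chromosome 17, 56278962 to 56290511, minus strand) encodes a perilipin of the cytosol that moves onto droplets as they form. Young mice had 28.3 to 44.4 CPM with a median of 36.1, and old mice 29.5 to 53.0 CPM with a median of 42.8. At 0.19 the log2 fold change did not pass (SE 0.102, edgeR adjusted p = 0.164). On the second day alone the 4 old mice, at 42.8 to 53.0 CPM, lay above the 5 young mice, at 29.4 to 42.3 CPM. Such a separation in this direction was seen for 10.7% of all genes on that day. The log2 fold change of 0.37 on that day passed (SE 0.116, edgeR adjusted p = 0.045). It also passed without mice 1184, 1186 and 1188 (0.34, edgeR adjusted p = 0.0215) and with limma-voom and sample weights (0.27, adjusted p = 0.0262).

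**Figure D2:**
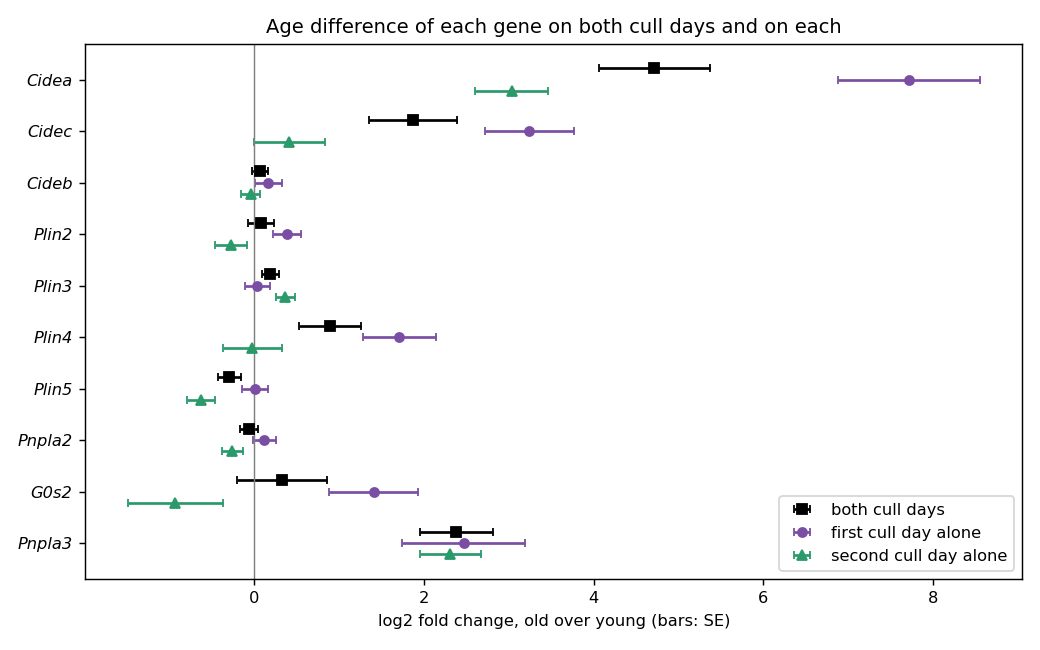
The horizontal axis gives the log2 fold change of old over young mice, with bars of 1 SE, for both cull days together (squares), the first day alone (circles) and the second day alone (triangles). Cidea and Pnpla3 lie well to the right on each day, whereas Cidec, Plin4 and G0s2 lie to the right on the first day and at 0.41 or below on the second.

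Pnpla2 encodes the lipase that starts the breakdown of stored triglyceride. It lies on chromosome 7 (141455188 to 141460743, plus strand), and the transcript kept in the table is a RefSeq RNA of the non-coding class, although the gene is annotated as protein-coding. Young mice had 43.3 to 73.9 CPM with a median of 58.1, and old mice 43.5 to 77.2 CPM with a median of 55.0. The ages overlapped, and the log2 fold change was -0.062 (SE 0.104, 95% interval -0.28 to 0.15, edgeR adjusted p = 0.678).

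G0s2 (chromosome 1, 193272160 to 193273188, minus strand), whose product inhibits that lipase, varied more among young mice than the other 9 genes, with an SD of log2 CPM of 1.88 in young and 0.37 in old mice. On the first cull day young mice had 5.58, 16.3, 40.3, 53.0 and 64.4 CPM and old mice 57.7, 80.6, 95.4, 109 and 132 CPM. On the second day young mice had 26.1, 105, 173, 196 and 490 CPM and old mice 77.8, 102, 104 and 127 CPM. Old mice thus kept to 57.7 to 132 CPM on both days, while young mice spanned an 87.8-fold range. The log2 fold change was 0.33 (SE 0.533, 95% interval -0.79 to 1.44, edgeR adjusted p = 0.671), and it was 1.41 on the first day (edgeR adjusted p = 0.128) and -0.93 on the second (edgeR adjusted p = 0.275). The mean CPM was lower in old mice, at 98.4 ± 23.7 (SD, n = 9) against 117 ± 146 (SD, n = 10), but without young mouse 1243, at 490 CPM, the young mean was 75.5 ± 68.6 CPM (SD, n = 9) and the old mean was the higher. The level of G0s2 per transcript length was 0.292 to 21.4 times that of Pnpla2 in young mice and 3.11 to 8.03 times in old mice.

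Pnpla3 (chromosome 15, 84167816 to 84189521, plus strand) encodes a droplet protein related to the lipase of Pnpla2, and its transcript is known to follow feeding and lipogenic signals. Young mice had 0.613 to 5.67 CPM with a median of 1.71, and old mice 0.417 to 18.9 CPM with a median of 11.9. Of 9 old mice 7 lay above all young mice, and old mouse 1189, at 0.417 CPM or 8 counts, lay below all young mice. The log2 fold change was 2.38 (SE 0.429, edgeR adjusted p = 0.000754). It was 2.31 on the second day (SE 0.356, edgeR adjusted p = 0.00155) and 2.47 on the first, which alone did not pass (SE 0.725, edgeR adjusted p = 0.0757). On the second day the 4 old mice, at 11.0 to 18.9 CPM, lay above the 5 young mice, at 1.17 to 5.67 CPM. Every old mouse lay above every young mouse for 10.7% of all genes tested on that day. Mouse 1189 had the highest Cidec and Plin2 values among old mice, 35.4 and 715 CPM, and the lowest Pnpla3 value.

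The stretches of 250 bases before the start sites of Cidec and Pnpla3, the called genes with an entry in the promoter table, and of Plin2, the most abundant perilipin, are shown because they could be searched for sites of factors known for lipid and growth hormone control. They are RefSeq sequences of build GRCm38.p6, 5′ to 3′ on the gene's strand. Capitals mark matches to the motifs searched. Cidec has 2 start sites in the table, and the stretch shown is that of the outermost one.
Cidec, chr6:113435761-113436010, minus strand: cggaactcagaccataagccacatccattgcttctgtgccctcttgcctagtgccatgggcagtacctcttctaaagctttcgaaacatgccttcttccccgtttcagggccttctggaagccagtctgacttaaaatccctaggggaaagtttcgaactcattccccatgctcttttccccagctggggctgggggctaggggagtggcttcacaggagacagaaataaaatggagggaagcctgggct
Pnpla3, chr15:84167566-84167815, plus strand: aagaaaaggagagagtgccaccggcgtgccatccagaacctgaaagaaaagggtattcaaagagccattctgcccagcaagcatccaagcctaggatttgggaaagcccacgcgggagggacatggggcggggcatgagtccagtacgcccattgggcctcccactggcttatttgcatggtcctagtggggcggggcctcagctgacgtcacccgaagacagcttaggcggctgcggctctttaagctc
Plin2, chr4:86670060-86670309, minus strand: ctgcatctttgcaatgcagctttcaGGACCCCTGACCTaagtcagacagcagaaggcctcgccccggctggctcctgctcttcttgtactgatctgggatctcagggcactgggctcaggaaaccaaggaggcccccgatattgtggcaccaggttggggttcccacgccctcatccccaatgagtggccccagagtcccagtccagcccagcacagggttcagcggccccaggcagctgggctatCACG

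The windows searched ran from 250 bases before to 50 after each start, on both strands, and 9 of the 10 genes had an entry, with 11 windows in all (Cidea had none). The motifs were 2 copies of AGGTCA in the same direction with 1 base of any kind between them, the direct repeat bound by PPAR and RXR receptors, TTCNNNGAA, bound by STAT5, and CACGTG, the E-box. Plin2 held a match to the direct repeat with 2 mismatches, GGACCCCTGACCT, which begins at position -225 from the start and matches on the reverse strand, and which 3.86% of 32851 promoters hold when up to 2 mismatches are allowed. It also held CACGTG from 4 bases before the start, of which the last 2 bases lie past the printed stretch, and 7.15% of promoters hold this motif. The matches do not overlap. The other windows, those of Cidec and Pnpla3 included, held none of the 3 motifs in these letters. TTCNNNGAA was found in 8.30% of all promoters.

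Because each cull day held both ages, the age difference could be compared between days by an interaction term. It was below 0, which is a lower log2 fold change on the second day than on the first, for 9 of 10 genes, and above 0 for Plin3 alone. On the first day all 10 log2 fold changes were above 0, and on the second day 4 were. The largest terms were -4.68 for Cidea (SE 1.12, unadjusted p = 0.00053), -2.83 for Cidec (SE 0.742, unadjusted p = 0.00123) and -2.35 for G0s2 (SE 0.856, unadjusted p = 0.0132) in edgeR. None of the 10 passed when adjusted over all genes (edgeR adjusted p = 0.602 to 0.988), and 0 of 12269 genes did. At an unadjusted p under 0.05 there were 6 of the 10 genes, against 6.51% of all genes. With each day alone, 2 of the 10 genes were called on the first, both higher, where 3.67% of all genes were called and 1.88% higher. On the second 3 were called higher and 1 lower, where 19.3% of all genes were called and 12.2% higher. The size of the Cidea term rests on first-day young libraries at or under the floor of 3 counts.

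Levels were compared between genes only per transcript length, as counts per kilobase, scaled to the same sum over all genes in each library. In young mice the order was Plin2 (477 ± 135, SD, n = 10), Cideb (300.1 ± 44.9), G0s2 (235 ± 280), Pnpla2 (37.4 ± 5.57), Plin5 (36.8 ± 8.45), Plin3 (29.5 ± 4.53), Cidec (4.69 ± 3.91), Plin4 (0.987 ± 0.573), Pnpla3 (0.772 ± 0.555) and Cidea (0.603 ± 0.805). In old mice Cidea moved from the last place to the seventh, at 17.8 ± 17.6 (SD, n = 9), beside Cidec at 17 ± 11.5. Pnpla3 followed at 4.02 ± 2.26 and Plin4 was last at 1.93 ± 0.985. Neighbours were close in some places: Pnpla2 exceeded Plin5 in 6 of 10 young mice, and Cidea exceeded Cidec in 4 of 9 old mice. Plin2 exceeded Cideb in 9 of 10 young and 9 of 9 old mice.

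**Figure D3:**
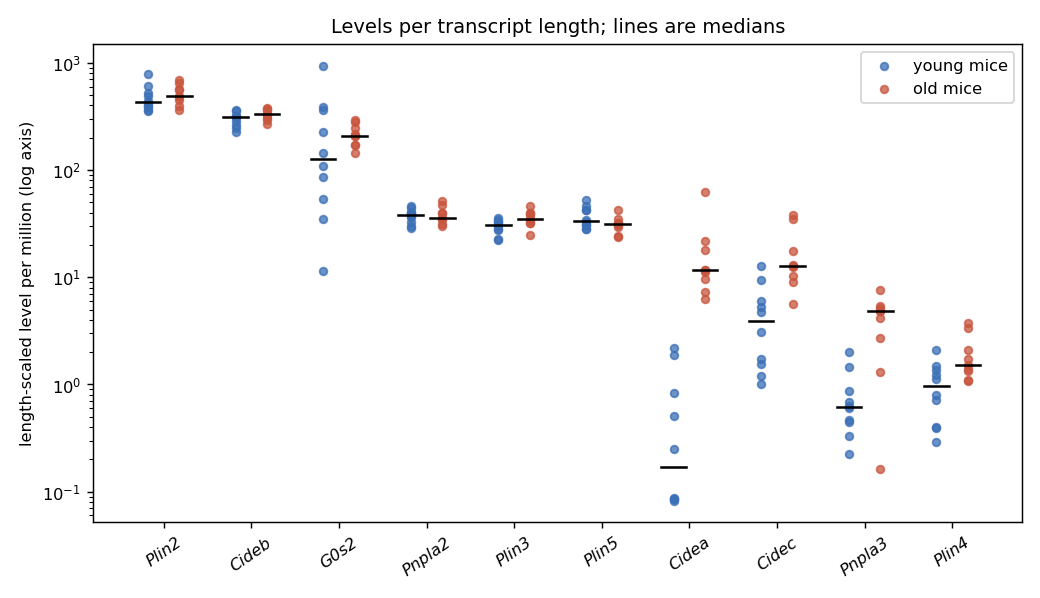
The level per transcript length is drawn on a log axis for each gene, with 1 point per mouse and black lines at the medians, young mice on the left of each pair and old mice on the right. The leading 4 genes hold their places at both ages, and Plin5 and Plin3 change places. The medians of all genes but Pnpla2 and Plin5 lie higher in old mice. For Cidea, 1 young mouse with a level of 0 is not drawn.

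Relations among mice of the same age were computed for the 45 pairs of genes in young and in old mice, 90 in all, on cull-day-centred log2 CPM with exact permutation within cull days. In young mice Cidec, Plin4 and G0s2 followed each other closely. Pearson's r was 0.964 for Cidec with Plin4 (exact permutation p = 0.000139, adjusted p = 0.00625; Spearman's rho = 0.939, its exact p = 0.000278 and adjusted p = 0.0156) and 0.920 without the 2 mice farthest from the median. For Plin4 with G0s2 it was 0.963 (exact permutation p = 0.000139, adjusted p = 0.00625; rho = 0.939, its exact p = 0.000347 and adjusted p = 0.0156) and 0.917 without the farthest pair. For Cidec with G0s2 it was 0.916 (exact permutation p = 0.000903, adjusted p = 0.0271) and 0.825 without the farthest pair, while rho was 0.903 and missed the threshold (p = 0.00382 by exact permutation, adjusted p = 0.115). These 3 pairs passed. Mice 1184, 1186 and 1188 were the 3 lowest young mice for Cidec, and 1184 and 1186 the 2 lowest for G0s2. Without all 3 mice r was 0.986 for Cidec with Plin4, 0.963 for Plin4 with G0s2 and 0.976 for Cidec with G0s2 (n = 7, exact permutation p = 0.00833, 0.00833 and 0.00417), and none passed (adjusted p = 0.125 for each). The smallest p that the 240 relabellings of these 7 mice can give is 0.00417. Plin3 ran against them, with r = -0.811 with G0s2, -0.737 with Plin4 and -0.720 with Cidec, none of which passed (exact permutation p = 0.00979, 0.0246 and 0.0302, adjusted p = 0.147, 0.202 and 0.227).

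None of the 45 pairs passed in old mice. The 2880 relabellings there can give a p as small as 0.000347, and the smallest exact permutation p seen was 0.00451. At an unadjusted exact permutation p under 0.05 there were 5 pairs in old and 12 in young mice, each of 45. The share of such pairs among other genes was not computed. The largest in old mice were Cidec with Plin2 (r = 0.901, exact permutation p = 0.00694, adjusted p = 0.125; rho = 0.867, its exact p = 0.0125 and adjusted p = 0.205), Plin3 with Pnpla3 (r = 0.877, exact permutation p = 0.00451, adjusted p = 0.102; rho = 0.833, its exact p = 0.0458 and adjusted p = 0.365) and Cidea with Cidec (r = 0.841, exact permutation p = 0.0146, adjusted p = 0.188; rho = 0.867, its exact p = 0.016 and adjusted p = 0.205). Without the farthest pair of mice these were 0.900, 0.791 and 0.832. With 4 or 5 mice of each age on a day, no relation was computed within single days. Whether any pair differed between ages was not tested.

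**Figure D4:**
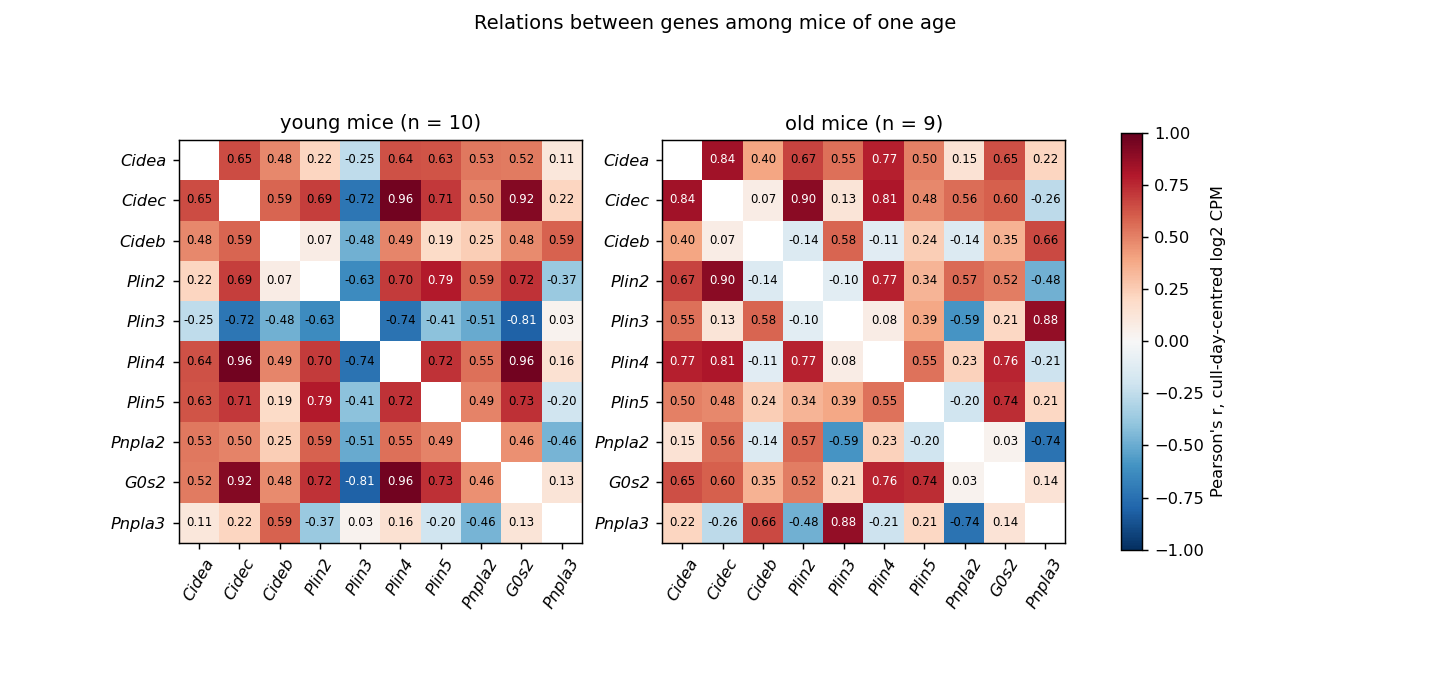
Each square gives Pearson's r between 2 genes over young mice (left, n = 10) and old mice (right, n = 9), after centring log2 CPM within cull days, from blue at -1 to red at 1. In young mice Cidec, Plin4 and G0s2 form the darkest red group, 0.92 to 0.96, and Plin3 is blue against them.

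The genes whose pattern was most like that of Cidea, the called gene with the smallest p and the largest fold, were sought among 11618 genes of at least 1 CPM. Likeness was Pearson's r of log2 CPM over 19 libraries after removing the mean of each age on each day. Predicted or unnamed genes (Gm followed by digits, or names ending in Rik) were left out before the ranks were given. The 3 highest of the genes kept were Hsd17b12, an enzyme of fatty acid elongation (r = 0.847), Carnmt1, a carnosine methyltransferase (r = 0.820), and Pex16, a peroxisome assembly factor (r = 0.799). Of the other droplet genes, Cidec stood 22nd (r = 0.720) and Plin4 47th (r = 0.677), and Pnpla3 stood 3031st (r = 0.166). The young mice of the first day had 0 to 3 counts of Cidea, so likeness rests mostly on the other mice.

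The other genes of droplet biology were read from lists, whose counts stand beside shares of 16.3% called higher and 14.5% called lower over all genes tested. Of 21 tested genes for other droplet proteins 3 rose and 5 fell (median log2 fold change -0.069, against -0.0034 over all genes). Pcyt1a, the rate-limiting enzyme of the main route to phosphatidylcholine, fell by 0.37 on the log2 scale (SE 0.0815, edgeR adjusted p = 0.00333). Ldah, a droplet hydrolase, fell by 0.32 and Vps13a, a lipid transfer protein, by 0.43. Hsd17b13, a droplet protein of hepatocytes that was picked with its value known, rose by 0.31 on the log2 scale, with means of 360 ± 74.0 CPM in young (SD, n = 10) and 438 ± 33.2 CPM in old hepatocytes (SD, n = 9; SE 0.0977, edgeR adjusted p = 0.0217).

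Of 17 further lipolysis genes 1 rose and 6 fell (median -0.12), where over all genes 16.3% rose and 14.5% fell. Abhd5, the activator of the Pnpla2 lipase, stood at 31.7 ± 3.78 CPM in the young (SD, n = 10), while old mice stood at 22.8 ± 3.35 CPM (SD, n = 9). It fell by 0.47 on the log2 scale (SE 0.0836, edgeR adjusted p = 0.000713), with 7 of 9 old mice below all young mice. Mgll, which completes the breakdown by splitting monoacylglycerol, fell by 0.56 (SE 0.127, edgeR adjusted p = 0.00356), also with 7 of 9 old mice below all young mice. Pnpla5, a relative of Pnpla3, rose by 2.12 (SE 0.441, edgeR adjusted p = 0.00216) from a low mean of 0.379 to 1.69 CPM. Of 9 old mice 6 lay above all young mice and 1 lay below all of them. The lipase itself did not pass, whereas its activator and the enzyme at the end of the chain fell. Lipe, a further gene of this list picked with its value known, did not pass (-0.088 on the log2 scale, SE 0.111, edgeR adjusted p = 0.575).

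The counts of the remaining lists stand beside the same shares over all genes, 16.3% higher and 14.5% lower. Triglyceride synthesis counted 1 rise and 4 falls among 17 genes tested (median -0.038), with Lpin1, a phosphatidate phosphatase, lower at -1.21 on the log2 scale (SE 0.314, edgeR adjusted p = 0.00815). Lpin2 was lower at -0.53 and Gpat2, a low acyltransferase gene at 0.444 CPM in young mice, higher at 1.66. Fatty acid uptake counted 2 rises and 1 fall among 14 genes (median -0.020): the log2 fold change was 1.79 for Lpl, lipoprotein lipase, 0.98 for Fabp5, a fatty acid binding protein, and -0.26 for Slc27a2, a fatty acid transport protein. VLDL assembly counted 2 rises and 1 fall among 13 genes (median -0.064), with Tm6sf2, a factor in loading lipid onto VLDL, higher by 0.52 (SE 0.0806, edgeR adjusted p = 0.000253), Pltp, phospholipid transfer protein, by 1.04, and Tmem41b, a lipid scramblase, lower at -0.23. Targets of PPAR alpha counted 1 rise and 2 falls among 20 genes (median -0.22), with Pdk4, a brake on glucose oxidation, at 1.17 and Creb3l3, a hepatic transcription factor, at -0.26. Regulators counted 1 rise and 6 falls among 22 genes (median -0.11). The smallest p belonged to Lpin1, which is in this list too, then to Ppard, the rise, at 0.54 and Foxo1 at -0.31. Ppara, the PPAR alpha gene itself, was lower at -0.46 (edgeR adjusted p = 0.0348) and was picked with its value known. Pparg, the adipocyte regulator known to drive Cidea, Cidec and Plin4, was likewise picked with its value known. Its mean was 11.0 ± 3.13 CPM in the young (SD, n = 10) against 11.2 ± 3.41 CPM in the old (SD, n = 9). The difference was -0.0015 on the log2 scale (SE 0.187, edgeR adjusted p = 0.997). Lpl and Fabp5 are also expressed by macrophages, whose markers rose, and the part of those cells in their rise was not tested.

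**Figure D5:**
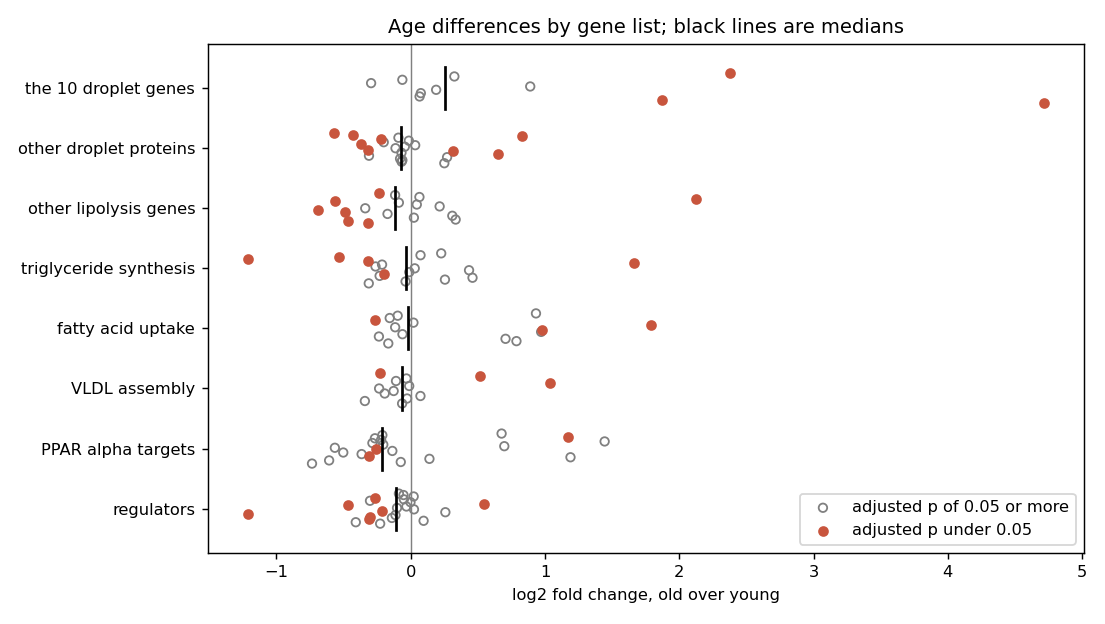
Each point is the log2 fold change of old over young mice for 1 gene of a list, filled where the adjusted p in edgeR was under 0.05, with a black line at each list's median. The 10 droplet genes at the top hold the highest value of the plot, Cidea at 4.72, while the medians of the other lists lie between -0.22 and -0.020.

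A score of other cell types, the mean log2 CPM of the 28 tested stellate, macrophage and endothelial genes, was 3.06 ± 0.541 in the young (SD, n = 10) against 4.17 ± 0.844 in the old (SD, n = 9). No lymphocyte marker passed the filter, although their sum was 0.112 to 0.547 CPM in young and 0.991 to 26.1 CPM in old mice, without overlap. Their part in the results was not tested. With this score as a covariate the log2 fold changes of Cidea (5.24, edgeR adjusted p = 0.000683), Cidec (2.85, edgeR adjusted p = 0.00679) and Pnpla3 (2.81, edgeR adjusted p = 0.00324) were no smaller than without it. Plin4 then passed as well (1.69, SE 0.421, edgeR adjusted p = 0.0138), so that 4 of 10 genes were called higher where 6.49% of all genes were. The log2 fold change of G0s2 moved from 0.33 to 1.47 with the score and did not pass (SE 0.638, edgeR adjusted p = 0.129).

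The genes with the smallest p in the other marker lists were Lrat (stellate, log2 fold change 1.52), Marco (macrophage, 2.16), Fcgr2b (endothelial, 0.90), Csf3r (neutrophil, 2.10), Sox9 (cholangiocyte, 0.32, which did not pass) and Cps1 (hepatocyte, -0.64). Of the 8 hepatocyte markers 2 rose and 2 fell. Of the neutrophil list 1 gene was tested and rose, and of the cholangiocyte list 2 were tested and neither passed.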

How the data were processed

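The authors deposited 1 table of raw estimated counts per gene, in multiples of 0.5 (29.2% of values were not whole). Per the file headers HOMER's analyzeRepeats.pl made it for mm10 by counting reads over exons of 1 RefSeq transcript per gene; the submitters' processing notes also name STAR. Versions, the strand setting and the handling of reads with several matches are not given in the sources used here. All 19 columns matched a mouse by number. Counts were rounded, ties to even, and genes were filtered with filterByExpr (minimum count 10).

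Age was tested on the whole table with edgeR 4.0.16 in R 4.3.3 (quasi-likelihood test, TMM scaling, cull day as covariate, Benjamini-Hochberg adjustment); SE is the absolute log2 fold change over the square root of F. The script was checked on simulated data. All 10 genes passed the filter, so the permutation test kept for genes too low for it was not needed. Alternatives were other scaling, filters, covariates and samples, DESeq2 1.42.0 and limma 3.58.1 (voom with sample weights, no fit without the weights). Python 3.11.15 with scipy 1.17.1 served for permutation, with a prior count of 2. The numbers of old and young mice are not shared, so nothing was paired.

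The genes and lists were chosen with earlier results of these data known. In each pathway list the 3 called genes with the smallest p are named, and in each marker list the gene with the smallest p; a gene that this rule names is not reported here.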

Additional observations from a re-analysis of the deposited data

Results flagged for a closer look

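In 20 groups, 10 genes at 2 ages, the highest or lowest mouse was compared with its neighbour, and in 4 groups, through 3 mice, one end lay farther out than the 95% limit of Dixon's test allows. Chance gives about 1 such group in 20. Old mouse 1181 had 38.8 CPM of Cidea, where the other 8 of that age had 4.02 to 13.9 CPM. Young mouse 1243 had 919 CPM of Plin2, against 390 to 655 CPM, and 490 CPM of G0s2, against 5.58 to 196 CPM in the other young mice. Old mouse 1189 had 77.2 CPM of Pnpla2, where the rest of that age had 43.5 to 60.1 CPM.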

How the results depend on the processing

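Cidea was called higher under all 14 alternatives and in all 19 fits that left out 1 mouse. Pnpla3 was called in all of these but the first cull day alone, and Cidec in all but the second cull day alone and the fit without young mice 1184, 1186 and 1188 (chosen after seeing the data, as were the fit without old mouse 1187 and scaling by the totals in the column names). The count of the 10 genes called higher moved to 5, and that called lower to 1, with limma-voom and sample weights together (2078 higher and 1927 lower of all 12269 genes), and the count called lower was also 1 on the second cull day alone. Leaving out 1 mouse gave 3 to 4 called higher and 0 to 1 called lower: Plin5 was called lower (-0.37, edgeR adjusted p = 0.0377) without old mouse 1183. Over all genes 3785 were called, 450 on the first cull day alone, 2389 on the second alone, 1574 with the other-cell score and 3014 to 3949 without 1 mouse. With library totals alone 64.2% of all calls were higher, against 53.0% with TMM, and on the second cull day alone 63.0%. Changes of direction were seen only for genes that had not been called: G0s2 without a cull day term (-0.25), Plin5 (0.0052) and Pnpla2 (0.12) on the first day, Cideb (-0.042), Plin2 (-0.27), Plin4 (-0.022) and G0s2 (-0.93) on the second, Plin5 with the other-cell score (0.036), Cideb (-0.060), Plin2 (-0.039) and G0s2 (-0.36) without young mice 1184, 1186 and 1188, and Plin2 without old mouse 1189 (-0.0076, the lowest of its values without 1 mouse, which reached 0.17). The causes were not tested, though each day alone has fewer mice. The interaction count was also 0 with library totals. The 3 relations that passed all passed with a prior count of 0.5 too, and 0 passed without young mice 1184, 1186 and 1188 (an alternative chosen after seeing the data), where the smallest p possible is 0.00417. No paired analysis was possible because the ages share no mouse numbers. Counting error limits Cidea in young mice, where 6 of 10 libraries held at most 3 counts.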
